A study of Homo sapiens with 3 samples.

Results

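The genes described here encode the proteasome: the alpha and beta subunits of its core particle, the ATPase and non-ATPase subunits of its regulatory particle, the interferon-induced beta subunits and the PA28 activator. They were taken by name, without use of any count, as every sgRNA whose name began with 1 of 37 gene symbols followed by an Ensembl gene identifier. Of the 37 genes, 36 were found, with 337 of the 189398 gene-targeting sgRNAs and among 20321 gene symbols in all. PSMA2 was not analysed here. PSMA1 was listed under 2 identifiers, 3 sgRNAs under ENSG00000129084 and 2 under ENSG00000256206, which GENCODE marks as a readthrough gene. The alpha genes had 53 sgRNAs, the constitutive beta genes 67, the ATPase genes 57 and the non-ATPase genes 117, so that 31 constitutive genes had 294 sgRNAs. The interferon-induced beta genes had 27 sgRNAs and the PA28 genes 16.

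The counts came from a pooled CRISPR knockout screen for regulators of MHC-I, in K562, a long-established human leukaemia cell line with little surface MHC-I. All 3 libraries came from Cas9-expressing K562 cells that had received the genome-wide Bassik Human CRISPR KO Library by lentivirus, at a multiplicity of 0.3, and were selected with puromycin (1 μg/mL for 72 h, from 48 h after infection). HLA-B high sorted cells were pulsed with interferon-γ (IFN-γ) at 1 ng/mL for 24 h and sorted for high HLA-B with the REA143 antibody on days 18 and 25. The high-screen control, or high-screen pool, was the unsorted cells of that screen. The low-screen control, or low-screen pool, was the unsorted cells of the reverse screen, whose cells were pulsed at 25 ng/mL and sorted for low MHC-I on days 7 and 15. The labels do not give the day on which either pool was harvested, and the low-screen pool's title names another antibody than its deposited data. Each group was 1 library, so differences between groups have no replicate check.

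The proteasome degrades proteins tagged with ubiquitin. Its barrel-shaped core is built of outer rings of alpha subunits, which gate the channel, and inner rings of beta subunits, of which PSMB5, PSMB6 and PSMB7 carry the proteolytic sites. The regulatory particle binds the tagged protein through its non-ATPase subunits, removes the ubiquitin chain and threads the protein into the core with its ring of ATPases. Dividing cells need these subunits for growth. IFN-γ induces PSMB8, PSMB9 and PSMB10, which take the places of PSMB5, PSMB6 and PSMB7 in newly made immunoproteasomes, and the PA28 subunits PSME1 and PSME2, which cap the core and open it. Peptides cut by the proteasome are what MHC-I displays at the cell surface.

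Matched reads numbered 34266318 for HLA-B high sorted cells, 22562241 for the high-screen pool and 98426251 for the low-screen pool. The sorted library listed 49.6% of the 200682 sgRNAs seen in any library, whereas the high-screen pool listed 97.7% and the low-screen pool 93.4%. Safe-targeting sgRNAs, which cut genomic sites of no known function, served as the reference, since a cell that carries one is also cut by Cas9. Abundance is given as counts per 1000000 matched reads (CPM). A count of 0 allowed up to 3 reads, which were 0.0876 CPM in the sorted library, 0.133 CPM in the high-screen pool and 0.0305 CPM in the low-screen pool. Intervals are exact (Clopper-Pearson) 95% intervals over sgRNAs. They treat sgRNAs as independent draws, although sgRNAs of 1 gene share their target. Spread between libraries is not covered, nor is error in the reads, since PCR reads without molecular identifiers are not independent molecules.

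sgRNAs against constitutive proteasome genes were scarce in both unsorted pools. They averaged 2.60 CPM each in the high-screen pool, 54.9% of the safe-targeting mean of 4.75 CPM, and 2.39 CPM in the low-screen pool, 46.1% of the safe-targeting mean of 5.19 CPM. The median sgRNA of a gene was at or below 50% of the safe-targeting median in 18 of 31 constitutive genes in the high-screen pool (58.1%), whereas 10.3% of all genes were that low. In the low-screen pool it was again 18 of 31, against 11% of all genes. The gene medians themselves had a median of 1.82 CPM in the high-screen pool and 1.79 CPM in the low-screen pool, beside 3.86 and 3.98 CPM over all genes.

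Within the core particle, 5 of 6 alpha genes and 6 of 7 constitutive beta genes were at or below 50% of the safe-targeting median in the high-screen pool. In the regulatory particle the same held for 2 of 6 ATPase and 5 of 12 non-ATPase genes. The counts in the low-screen pool were 6 of 6 alpha, 4 of 7 constitutive beta, 3 of 6 ATPase and 5 of 12 non-ATPase genes. ADRM1, a ubiquitin receptor of the regulatory particle, was the constitutive gene with the highest median in the high-screen pool, 3.88 CPM, which lay at the level of the safe-targeting sgRNAs there (3.86 CPM). PSMD6, a structural subunit of the regulatory particle's lid, had the lowest there at 0.488 CPM, but 1.71 CPM in the low-screen pool. PSMD3, another lid subunit, had a median of 2.66 CPM in the high-screen pool and of 0 CPM in the low-screen pool, the lowest there. The starting plasmid library is not among the libraries, and the part of unequal representation before infection in these levels was not tested.

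**Figure D1:**
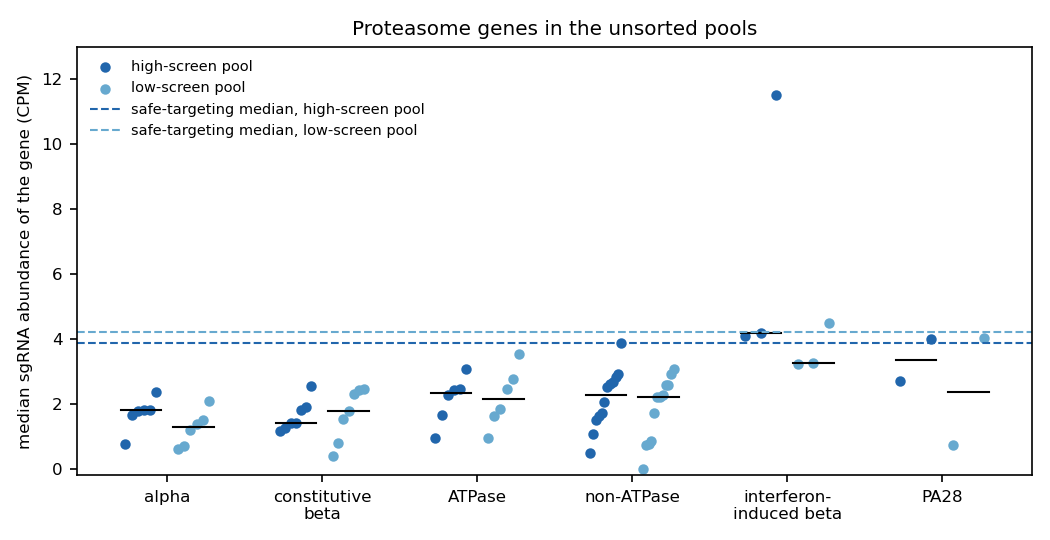
Median sgRNA abundance (CPM) of each proteasome gene with at least 3 sgRNAs in the high-screen pool and the low-screen pool, by subunit class. Points are genes, short black lines are class medians and dashed lines are the medians of safe-targeting sgRNAs; every alpha, constitutive beta and ATPase gene lies below the dashed line of its pool, and the interferon-induced beta genes lie at or above 3.2 CPM in both.

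The interferon-induced and PA28 genes were not low in the same way. The sgRNAs of PSMB8, PSMB9 and PSMB10 averaged 6.02 CPM in the high-screen pool, 127% of the safe-targeting mean, and 4.80 CPM in the low-screen pool, 92.4% of it. The median sgRNA was 4.08 CPM for PSMB8, 4.17 CPM for PSMB9 and 11.5 CPM for PSMB10 in the high-screen pool, all above the safe-targeting median of 3.86 CPM. In the low-screen pool the medians were 3.25, 3.22 and 4.50 CPM, of which only that of PSMB10 was above the safe-targeting median of 4.20 CPM. The median sgRNA of PSME1 was 3.99 CPM in the high-screen pool and 4.01 CPM in the low-screen pool, and that of PSME2 was 2.70 and 0.732 CPM. PSME2 was the 1 gene of these 5 at or below 50% of the safe-targeting median, and only in the low-screen pool.

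Other genes of the pathway were closer to the safe-targeting level. Among 9 assembly chaperones, which help put the particle together, 2 had a median at or below 50% of the safe-targeting one in the high-screen pool, PSMG3 at 0.665 CPM and POMP at 1.53 CPM, and none did in the low-screen pool. None of 8 further regulators and variant subunits, among them the deubiquitinases USP14 and UCHL5, was that low in either pool. NFE2L1, the factor that raises proteasome gene transcription when the proteasome is inhibited, and DDI2, the protease that activates it, had medians of 3.10 and 2.77 CPM in the high-screen pool. Ribosomal protein genes, another set that dividing cells need, stood at levels like those of the constitutive proteasome genes. Their gene medians had a median of 1.97 CPM (large subunit) and 2.02 CPM (small subunit) in the high-screen pool, and of 1.52 and 1.84 CPM in the low-screen pool. Olfactory receptor genes, not known to be needed by K562, had 2.97 CPM in the high-screen pool and 3.11 CPM in the low-screen pool. Of these genes 24.6% and 24.4% were at or below 50% of the safe-targeting median, above the shares over all genes.

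In HLA-B high sorted cells most constitutive proteasome sgRNAs were missing. Of the 294, 223 had no read in the sorted library, 75.9% (interval 70.5% to 80.6%), whereas 49.6% of safe-targeting sgRNAs had none (48.4% to 50.8%). The share was 81.1% for alpha, 82.1% for constitutive beta, 77.2% for ATPase and 69.2% for non-ATPase subunits, and the lower bound of each interval lay above the safe-targeting share. Over 50% of the sgRNAs, a limit set after the data were seen, were missing for 29 of 31 constitutive genes, both PA28 genes and none of the 3 interferon-induced beta genes, beside 42.6% of all genes. The constitutive exceptions were PSMD8 and PSMD14, each with 5 of 10 sgRNAs missing. The sgRNAs of the assembly chaperones (51.8% missing) and of the further regulators (56.4%) were nearer to the safe-targeting share, those of the olfactory receptors were at 56.9%, and those of the large and small ribosomal subunits were at 73.9% and 67.03%.

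**Figure D2:**
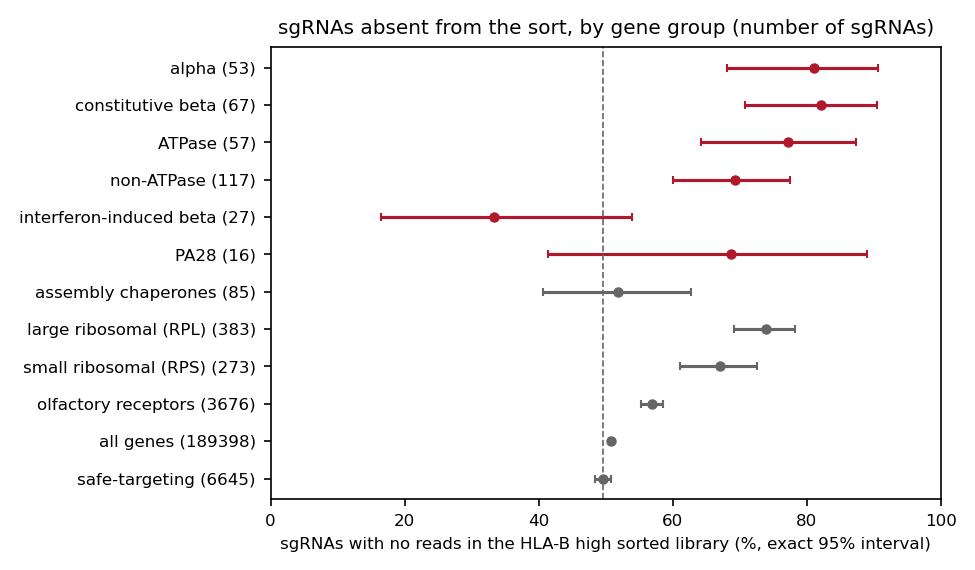
Percent of sgRNAs without a read in HLA-B high sorted cells for each proteasome class (red) and for other gene groups and safe-targeting sgRNAs (grey), with exact 95% intervals and the number of sgRNAs in brackets; the dashed line marks the safe-targeting share of 49.6%. The 4 constitutive classes lie to the right of the line and the interferon-induced beta subunits to its left, at 33.3%, with an interval that includes the line.

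Because a scarce sgRNA is more easily lost from a sort, the shares were also read among sgRNAs of like count in the high-screen pool, a comparison chosen after the data were seen. At 1 to 9 reads 83.3% of constitutive sgRNAs and 81.5% of safe-targeting sgRNAs were missing, and the intervals overlapped. At 10 to 29 reads the shares were 81.4% against 68.0%, at 30 to 59 reads 78.0% against 62.1%, and from 60 to below 120 reads 68.1% against 48.5%. At 120 reads or more 23 of 34 constitutive sgRNAs were missing, 67.6% (49.5% to 82.6%), against 32.8% of safe-targeting sgRNAs (30.9% to 34.7%). This last band has no upper limit, so counts within it were not matched. From 30 reads upward the interval of the constitutive sgRNAs lay above that of the safe-targeting sgRNAs in each band, and at 10 to 29 reads the intervals met only at their ends (70.3% to 89.7%, against 64.6% to 71.2%). Large ribosomal subunit sgRNAs had 58.0% missing at 120 reads or more (45.5% to 69.8%), an interval that overlapped that of the proteasome. Among sgRNAs with at least 120 reads in the low-screen pool instead, 73.2% of constitutive sgRNAs (66.1% to 79.5%) and 46.4% of safe-targeting sgRNAs were missing. That pool was sequenced more deeply. Of sgRNAs with at least 10 reads there, the cut kept 179 of 233 constitutive and 5706 of 6260 safe-targeting ones. Levels were thus matched less closely than in the bands of the high-screen pool.

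**Figure D3:**
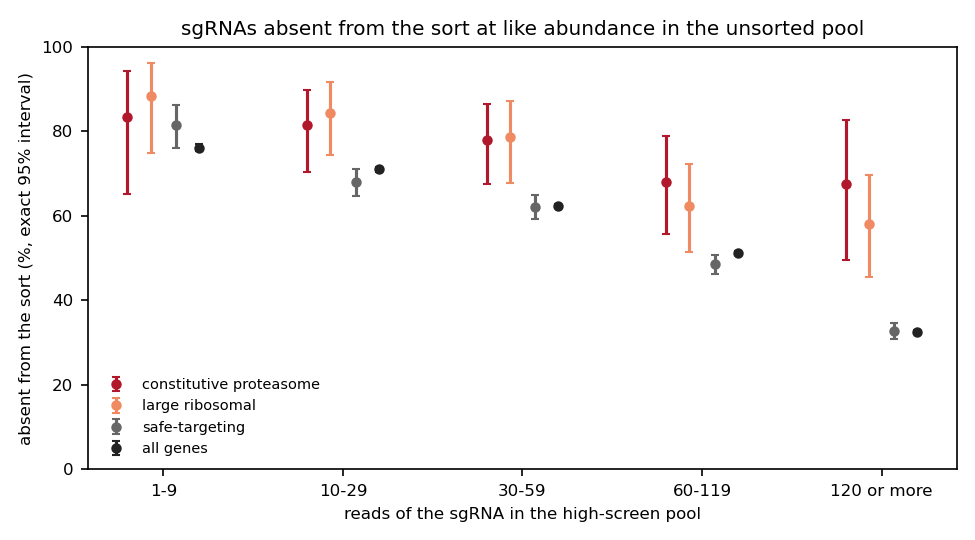
Percent of sgRNAs absent from the HLA-B high sorted library (exact 95% interval) by the number of reads of the sgRNA in the high-screen pool, for constitutive proteasome genes, large ribosomal subunit genes, safe-targeting sgRNAs and all genes. At 120 reads or more, a band without an upper limit, 67.6% of constitutive proteasome sgRNAs were absent, against 32.8% of safe-targeting sgRNAs.

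The constitutive sgRNAs that remained in the sort were also at low counts. Their median was 35 reads over 71 sgRNAs, whereas the 3348 safe-targeting sgRNAs that remained had a median of 99 reads. All constitutive sgRNAs together averaged 0.704 CPM in the sorted library, 16.8% of the safe-targeting mean of 4.18 CPM there, whereas they stood at 54.9% and 46.1% of it in the unsorted pools. By class the average was 13.8% of the safe-targeting mean for alpha, 15.4% for constitutive beta, 14.5% for ATPase and 20.2% for non-ATPase subunits. Few sgRNAs carried these reads: the top 5 of 294 held 32.3% of them. A sorted level at least 2-fold above that in the high-screen pool was seen in 11 of 255 constitutive sgRNAs with at least 10 control reads, 4.31% (2.17% to 7.59%), and in 11.7% of safe-targeting sgRNAs (10.9% to 12.5%).

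No read was seen in the sort for 4 of 31 constitutive genes, PSMA1, PSMA3, PSMB3 and PSMD3, whereas 0.817% of all genes had none. The same held for 7 of 44 large and 1 of 32 small ribosomal subunit genes, so this was not particular to the proteasome. The alpha subunit gene PSMA3 (chr14:58711561-58738730, plus strand; all positions are GENCODE release 44 lifted to GRCh37) summed to 0 CPM in the sorted library, 22.1 CPM in the high-screen pool and 6.63 CPM in the low-screen pool over its 9 sgRNAs. Its 9 sgRNAs had 1 to 117 reads each in the high-screen pool. In reads the sort was at least 253-fold lower, with the sorted sum set at 3 reads. This bound concerns reads and not cells, and 49.6% of safe-targeting sgRNAs had no read in the sort either. PSMD3 (chr17:38137060-38154212, plus strand), a scaffold subunit of the lid, likewise summed to 0 CPM in the sort over 9 sgRNAs. It had 23.4 CPM in the high-screen pool and 5.17 CPM in the low-screen pool. By the same bound on reads, its sorted level was at least 267-fold lower than in the high-screen pool. PSMB3, a beta subunit without proteolytic activity, summed to 0 CPM in the sort, 19.6 CPM in the high-screen pool and 24.8 CPM in the low-screen pool. PSMA1 under ENSG00000129084 summed to 0 CPM in the sort and had only 2.79 and 2.17 CPM in the pools, from 3 sgRNAs.

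At the other end were a few constitutive genes whose summed level in the sort came near the pools. PSMA6 (chr14:35747839-35786699, plus strand), an alpha subunit, summed to 29.9 CPM in the sort, 28.9 CPM in the high-screen pool and 17.4 CPM in the low-screen pool. The sorted level rested on 3 of its 10 sgRNAs, 1 of which held 62.2% of the reads, and the other 7 had none. PSMD6 (chr3:63996226-64009686, minus strand) summed to 19.5 CPM in the sort, 13.2 CPM in the high-screen pool and 19.9 CPM in the low-screen pool, and 1 sgRNA held 64.8% of its sorted reads. PSMD14 (chr2:162164936-162268228, plus strand), the deubiquitinase of the lid, summed to 25.2 CPM in the sort, 32.0 CPM in the high-screen pool and 36.8 CPM in the low-screen pool. Its sorted reads were spread over 5 of 10 sgRNAs, with 12, 21, 222, 235 and 375 reads, and it was the constitutive gene with the highest median log2 ratio in both sort comparisons. PSMB1, a beta subunit without proteolytic activity, was the constitutive beta gene highest in the sort at 18.1 CPM, against 28.1 CPM in the high-screen pool and 29.7 CPM in the low-screen pool.

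**Figure D4:**
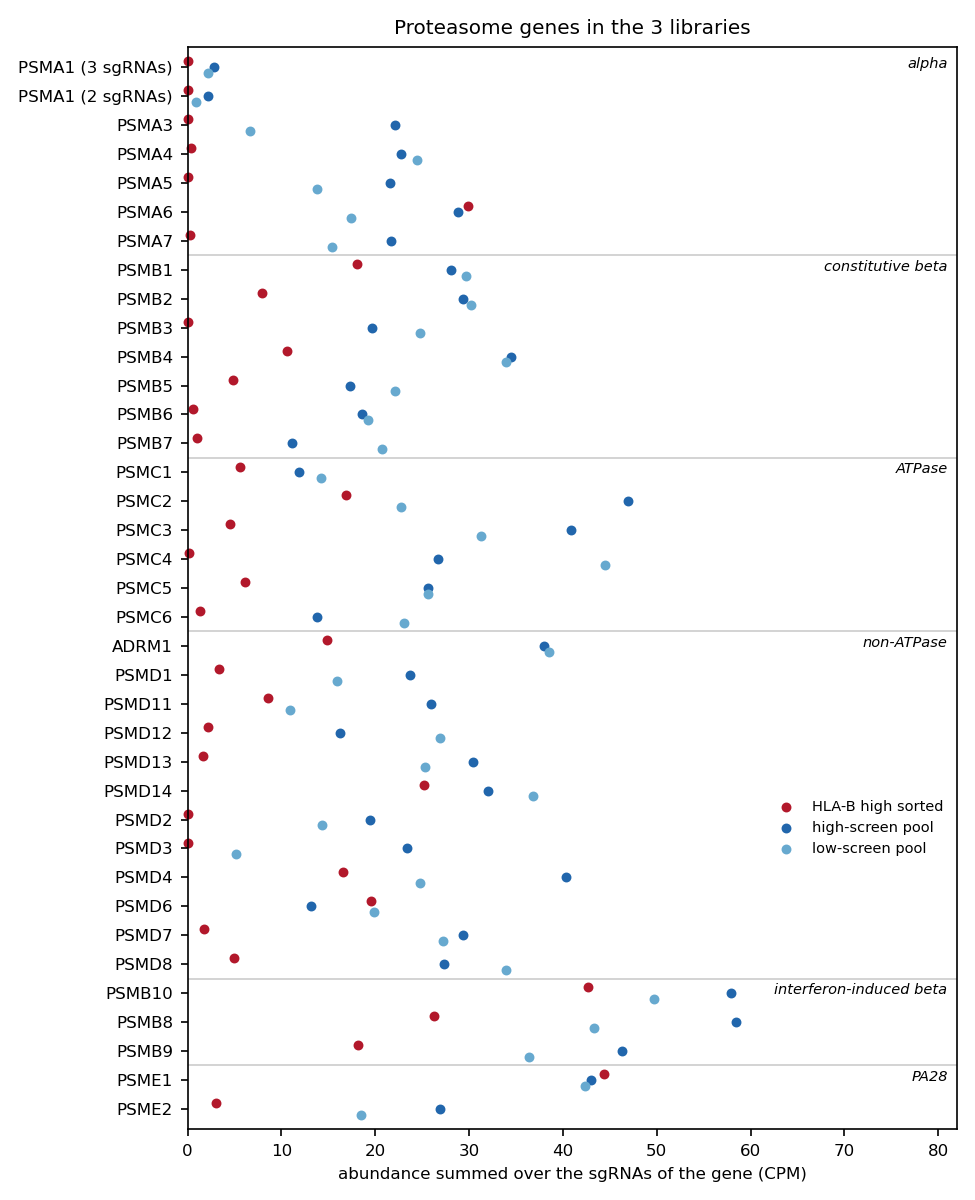
Abundance summed over the sgRNAs of each proteasome gene (CPM) in the HLA-B high sorted library, the high-screen pool and the low-screen pool, with genes grouped by class and PSMA1 shown under both identifiers. Most constitutive genes have their sorted value (red) far to the left of both pools; PSMA6, PSMD6 and PSMD14 do not, and PSMB8, PSMB9 and PSMB10 lie between 18.2 and 42.7 CPM in the sort.

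The interferon-induced beta subunits differed from the constitutive subunits that they replace. PSMB8 (chr6:32808494-32812456, minus strand) had 26.2 CPM in the sort, 58.5 CPM in the high-screen pool and 43.4 CPM in the low-screen pool. PSMB9 (chr6:32811913-32827628, plus strand) had 18.2 CPM in the sort, 46.3 CPM in the high-screen pool and 36.4 CPM in the low-screen pool. PSMB10 (chr16:67968409-67970767, minus strand) had 42.7 CPM in the sort, 57.9 CPM in the high-screen pool and 49.7 CPM in the low-screen pool. Thus each was lower in the sort than in either pool, yet far above its constitutive counterpart: PSMB5 (chr14:23485752-23504439, minus strand) summed to 4.87 CPM in the sort, PSMB6 (chr17:4699439-4701797, plus strand) to 0.613 CPM and PSMB7 (chr9:127115744-127177723, minus strand) to 1.02 CPM. The sort lacked 2 of 10 sgRNAs of PSMB8 and 9 of 10 of PSMB5, 5 of 10 of PSMB9 and 7 of 9 of PSMB6, and 2 of 7 of PSMB10 and 8 of 9 of PSMB7. Of the 27 interferon-induced sgRNAs 33.3% were missing (16.5% to 54.0%), an interval that lay below that of the constitutive sgRNAs and included the safe-targeting share. These sgRNAs were also more abundant in the pools, and among those with 120 reads or more in the high-screen pool 3 of 13 were missing, 23.1% (5.04% to 53.8%), an interval that overlapped that of the constitutive sgRNAs in the same band (49.5% to 82.6%). PSMB8 and PSMB9 overlap by 544 bp in the annotation, and the sgRNA names give the gene but not the cut site.

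Both PA28 genes had most of their sgRNAs missing from the sort, 11 of 16 (68.8%, 41.3% to 89.0%), with an interval too wide to set them apart from either the constitutive or the safe-targeting sgRNAs. Their summed levels nevertheless lay far apart. PSME1 (chr14:24605372-24608176, plus strand) had 44.3 CPM in the sort, 42.9 CPM in the high-screen pool and 42.4 CPM in the low-screen pool, all of the sorted reads coming from 3 of its 9 sgRNAs with 349, 358 and 812 reads. PSME2 (chr14:24612571-24616779, minus strand) had 3.04 CPM in the sort, 26.9 CPM in the high-screen pool and 18.5 CPM in the low-screen pool, from 2 of 7 sgRNAs with 43 and 61 reads.

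Each gene was then scored by the median log2 ratio of its sgRNAs, set relative to the median of safe-targeting sgRNAs. Against the high-screen pool 16 of 36 proteasome genes were at least 2-fold lower than safe-targeting sgRNAs, all 16 constitutive, beside 29.8% of all genes, and 4 of 36 were at least 2-fold higher, beside 35.6% of all genes. The 4 were PSMB8 (log2 ratio 3.62), PSMB9 (2.66), PSMB10 (2.95) and PSMD14 (1.18). The median over the constitutive genes was -1.02 and over all genes -0.08. Against the low-screen pool 14 of 35 genes were at least 2-fold lower (30.6% of all genes), 13 constitutive ones and PSME1, and the same 4 were at least 2-fold higher (34.9% of all genes). With 49.6% of safe-targeting sgRNAs absent from the sort, their median ratio lay at the edge between absent and present sgRNAs, and a gene was scored low or high by which of these its median sgRNA was. With a pseudocount of 5 reads the lower genes numbered 4 of 36 against the high-screen pool, beside 18.6% of all genes, and 5 of 35 against the low-screen pool, beside 15.2%, so that the proteasome share then lay below that of all genes. Both comparisons use the same sorted library, so the second is no independent repeat of the first.

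Summing the reads of each gene before taking the ratio gave a different picture of the interferon-induced genes. PSMB8, PSMB9 and PSMB10 then had log2 ratios of -0.96, -1.15 and -0.25 against the high-screen pool relative to summed safe-targeting sgRNAs, opposite in sign to their medians. Against the low-screen pool the summed ratios were -0.37, -0.65 and 0.13, of which that of PSMB10 had the sign of its median. The constitutive genes were lower by either score: their summed ratios had a median of -2.72 and were at least 2-fold lower in 26 of 31 genes, whereas over all genes the median was -0.38 and 33% were at least 2-fold lower. Against the low-screen pool the median was -3.43 over 30 constitutive genes and -0.26 over all genes. Among the constitutive genes PSMD6 had the highest summed ratio in both sort comparisons, 0.45 against the high-screen pool and 0.33 against the low-screen pool.

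By redundant siRNA activity (RSA), which scores a gene by the smallest exact hypergeometric p that the ranks of its sgRNAs give, few proteasome genes were called in the sort. A call needed a p below 0.001, and 4 or more sgRNAs of the gene ranked at its best rank or further out. The log2 ratio of an absent sgRNA is bounded by its control count, so scarce sgRNAs could not reach the lowest ranks. PSMB3 and PSMD3, without a sorted read, were not called depleted against the high-screen pool (exact hypergeometric p = 0.00658 and 0.00391). PSMA1 (ENSG00000129084), also without a sorted read (exact hypergeometric p = 0.135), had only 3 sgRNAs and could not be called by this rule. The number of calls does not measure the size of the loss. Against the high-screen pool PSMA3 was the 1 gene of 37 identifiers called depleted (exact hypergeometric p = 0.000914, adjusted p = 0.127 by Benjamini-Hochberg over all genes), with 8 of its 8 ranked sgRNAs at the best rank or beyond, and 0.409% of all genes were called. Against the low-screen pool it was PSMC4 (exact hypergeometric p = 0.000619, adjusted p = 0.107), and 0.552% of all genes were called. PSMC4 (chr19:40477072-40487671, plus strand), an ATPase, summed to 0.117 CPM in the sort, 26.7 CPM in the high-screen pool and 44.5 CPM in the low-screen pool, with 4 sorted reads over 10 sgRNAs. Neither call passed the adjustment, and that of PSMA3 was lost with a minimum of 30 reads, with no minimum or with a pseudocount of 5 (exact hypergeometric p between 0.00168 and 0.0028), that of PSMC4 with no minimum (0.00187). No proteasome gene was called enriched against the high-screen pool (0.527% of all genes) or the low-screen pool (0.631%). At an unadjusted RSA p below 0.05, 17 identifiers were depleted and 1 was enriched against the high-screen pool, and 12 were depleted and 2 enriched against the low-screen pool. RSA takes a minimum over ranks, so such p-values were common: over all genes 4607 were depleted and 4552 enriched of 20314 against the high-screen pool, and 4612 were depleted and 4517 enriched of 20295 against the low-screen pool. An RSA p thus speaks of how well a gene's sgRNAs concur in 2 single libraries and carries no spread between replicates.

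The unsorted pools also differed from each other in proteasome sgRNAs. The high-screen pool lacked 3.06% of constitutive sgRNAs and 2.09% of safe-targeting ones, whereas the low-screen pool, though sequenced more deeply, lacked 20.1% (15.6% to 25.1%) of constitutive sgRNAs and 5.36% of safe-targeting ones. At least 10 reads in the high-screen pool with none in the low-screen pool were found for 50 of 294 constitutive sgRNAs, 17.0% (12.9% to 21.8%), and for 4.39% of safe-targeting sgRNAs. Among PA28 sgRNAs this held for 4 of 16, 25% (7.27% to 52.4%). For interferon-induced beta sgRNAs it was 1 of 27, 3.70% (0.0937% to 19.0%). The reverse was found for 2.72% of constitutive and 1.94% of safe-targeting sgRNAs. Of the sgRNAs against ribosomal protein genes the high-screen pool lacked 7.57% (large subunit) and 6.96% (small subunit), and the low-screen pool 18.5% and 18.3%.

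In the comparison of the high-screen with the low-screen pool RSA called 5 of 37 identifiers enriched, beside 0.836% of all genes, and 1 depleted, beside 0.762% of all genes. This comparison shares the high-screen pool with the first sort comparison. PSMD3, at 23.4 CPM in the high-screen pool and 5.17 CPM in the low-screen pool, had the smallest exact hypergeometric p (1.8e-06, adjusted p = 0.0198 by Benjamini-Hochberg) and was the 1 proteasome identifier with an adjusted p below 0.05. Of its 9 sgRNAs 5 had no read in the low-screen pool and 18 to 87 reads in the high-screen pool. PSMA3 followed (exact hypergeometric p = 0.000155, adjusted p = 0.0535), at 22.1 CPM in the high-screen pool and 6.63 CPM in the low-screen pool. PSMD1, PSMB5 and PSMC1, a scaffold subunit, a proteolytic subunit and an ATPase, were also called (exact hypergeometric p = 0.000593, 0.000821 and 0.000828, adjusted p = 0.0759 for each). PSMD1 (chr2:231921559-232037830, plus strand) had 23.7 CPM in the high-screen pool and 15.9 CPM in the low-screen pool, whereas PSMB5 had 17.3 and 22.1 CPM and PSMC1 (chr14:90722871-90741773, plus strand) 11.9 and 14.2 CPM. The summed levels of PSMB5 and PSMC1 were thus lower in the high-screen pool although their sgRNAs were called enriched there. In the low-screen pool 5 of 10 sgRNAs of PSMB5 and 4 of 10 of PSMC1 had no read, while single sgRNAs reached 9.26 and 5.85 CPM. With a minimum of 30 reads PSMD1, PSMB5 and PSMC1 were no longer called (exact hypergeometric p = 0.0105, 0.0198 and 0.652). The call of PSMB5 was also lost with a pseudocount of 5 reads. Those of PSMB5 and PSMC1 were lost without the most extreme sgRNA of each gene, because too few sgRNAs were then left for a call. Their p did not rise in that setting (exact hypergeometric p = 0.000195 and 0.000151).

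PSMD6 went the other way and was the 1 identifier called depleted in the high-screen pool against the low-screen pool (exact hypergeometric p = 0.000127, adjusted p = 0.0686 by Benjamini-Hochberg). Its 10 sgRNAs had 0 to 113 reads in the high-screen pool and 75 to 494 reads in the low-screen pool, so that none was missing from the low-screen pool. Its median log2 ratio relative to safe-targeting sgRNAs was -1.70, and it was the 1 proteasome gene of 36 at least 2-fold lower, beside 2.57% of all genes. At least 2-fold higher were 9 of 36, beside 6.14% of all genes: PSMA3 (1.90), PSMA6 (2.03), PSMB5 (1.56), PSMB6 (1.15), PSMB10 (1.26), PSMC5 (1.33), PSMD1 (2.36), PSMD3 (6.51) and PSMD4 (1.16). Ribosomal protein genes had like shares, 11 of 44 (25%) for the large and 11 of 32 (34.4%) for the small subunit. The median over the constitutive genes was 0.56 and over all genes 0.13. With the reads of each gene summed first, both medians were 0.13, and 15 of 31 constitutive genes lay below that of all genes.

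The extremes of each class between the pools were as follows. Among alpha genes PSMA6 was highest and PSMA4 lowest (-0.44), with 3 of 10 and 1 of 10 sgRNAs missing from the low-screen pool. PSMA4 (chr15:78832747-78844759, plus strand) had 22.7 CPM in the high-screen pool and 24.4 CPM in the low-screen pool. Among constitutive beta genes PSMB5 was highest and PSMB7 lowest (-0.60), with 5 of 10 and 1 of 9 missing, and PSMB7 had 11.1 and 20.7 CPM. Among ATPase genes PSMC5 (chr17:61904512-61909386, plus strand) was highest, at 25.6 CPM in both pools and 2 of 10 missing, and PSMC4 lowest (-0.82), at 26.7 and 44.5 CPM and 1 of 10 missing. Among non-ATPase genes PSMD3 was highest (6.51), with 5 of 9 missing from the low-screen pool, and PSMD6 lowest (-1.70), with none missing. No member of the assembly chaperones, further regulators, NFE2L1 or DDI2 was called by RSA in any of the 3 comparisons.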

How the data were processed

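The authors deposited raw read counts per sgRNA, without normalization, for 3 libraries with 1 library per group. Per the study's methods, reads were trimmed of constant sequence with fastx clipper or cutadapt and mapped with Bowtie2 to the sgRNA sequences, and multi-aligning reads were removed. Versions are not given in the sources used here. Reads matched to no sgRNA (21.9% for HLA-B high sorted cells, 20.6% for the high-screen pool and 12.1% for the low-screen pool) were left out, and an sgRNA not listed in a library was given a count of 0.

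Log2 ratios used a pseudocount of 1 read, counts scaled to matched reads, and sgRNAs with at least 10 reads in the control (in either library for the 2 pools). Gene medians needed at least 3 sgRNAs. RSA, the method of the study, was run one-sided from each end, with tied sgRNAs at the last rank of the tie, and was tested on simulated data. The simulated counts were drawn around those of the high-screen pool, without the loss of sgRNAs seen in the sort. The test therefore does not show how RSA behaves under that loss. Python 3.11.15, numpy 2.4.6, pandas 2.3.3, scipy 1.17.1 and matplotlib 3.10.9 were used. Genes described in full were those called by RSA, the interferon-induced and PA28 genes and the extremes of each class between the pools. PSMA6, PSMD6, PSMD14, PSMB1, PSMB3 and ADRM1 were in part described after their values were seen. The members and lists were chosen with earlier results of these data known. Gene positions were matched by identifier, and PSMB3 had no match.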

Additional observations from a re-analysis of the deposited data

How the results depend on the processing

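The counts and medians over proteasome genes kept their size in 70 of 99 alternatives (a count within 1.5 times, a median within 0.5 on the log2 scale, a share within its interval), no median changed sign, and the cause of a move was not tested. The 70 include counts of 0 genes called enriched in the sort that stayed at 0. They also include the median between the pools with summed counts, which went from 0.55 to 0.19, beside 0.13 over all genes. RSA called 0 proteasome genes depleted in the sort against the high-screen pool with a minimum of 30 reads, with no minimum and with a pseudocount of 5, and 0 against the low-screen pool with no minimum, so that the calls of PSMA3 and PSMC4 rest on those settings. RSA called 2 enriched in the high-screen against the low-screen pool at a minimum of 30 reads. In the sort against the high-screen pool, genes at least 2-fold lower numbered 4 with a pseudocount of 5 (18.6% of all genes), 33 against non-targeting sgRNAs (69.1%) and 28 with summed counts (33%), and those at least 2-fold higher 1 against non-targeting sgRNAs (10.9%) and 0 with summed counts (13.4%). Against the low-screen pool these were 5, 31 and 26 lower (15.2%, 72.2% and 31.5% of all genes), and 1 and 0 higher (9.22% and 17.1%), with 12 higher at no minimum (42.9%). Their median was -3.21 (non-targeting) and -2.45 (summed) against the high-screen pool, and -0.034 (pseudocount 5), -3.44 (non-targeting) and -2.43 (summed) against the low-screen pool. Against non-targeting sgRNAs the median of all genes moved as well, to -2.56 and -2.74. Between the pools the lower genes numbered 2 at a minimum of 30 reads (2.82% of all genes), 3 against non-targeting sgRNAs (6.3%) and 0 with summed counts (0.74%), and the higher ones 4 with summed counts (2.36%). With non-targeting sgRNAs as the reference 31 genes were at or below 50% of the reference median in either pool, beside 39.9% and 30.9% of all genes. More than 75% of sgRNAs were missing from the sort for 17 genes, beside 9.19% of all genes, and 67.6% of constitutive sgRNAs were missing among those that the high-screen pool held at 120 reads or more; both were chosen after the data were seen. Of 40 alternatives for the RSA calls of single genes 10 lost the call. Among them were PSMB5 and PSMC1 without the most extreme sgRNA, where too few sgRNAs were left for a call. Leaving out a replicate was not possible with 1 library per group. No paired analysis was possible either, because the sort and the unsorted pool of its own screen form only a single pair. With only 27 interferon-induced and 16 PA28 sgRNAs, the intervals of their shares are wide.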
